A study of Homo sapiens with 9 samples.

Results

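The comparison described here set HaCaT keratinocytes that had been exposed to UVA and treated with the Coreopsis tinctoria extract (CT libraries) against untreated HaCaT cells (NC libraries), and asked which transcripts still differed from untreated cells although the extract was present. It used 6 of the 9 libraries of the series, 3 per group. All genes that passed a filter on low counts were taken as members, which gave 15154 of the 61311 genes listed. The NC cells received neither irradiation nor extract, and the CT cells received UVA at a dose of 5 J/cm² and the extract, whose amount the sample labels do not state. A further group of 3 libraries, UVA, received the same irradiation without the extract, entered the same fit and is shown beside the others. All groups carried the genotype label WT, and no library came from cells given the extract without irradiation, so a contribution of the extract alone cannot be told apart from its effect on irradiated cells. HaCaT is an immortalized line derived from human skin, and it differentiates less completely than primary keratinocytes do. Each library was made from mRNA enriched on oligo(dT) beads. Neither the labels nor the methods state whether the 3 libraries of a group stem from different cultures, and p-values therefore refer to the variation among these libraries, which may be technical.

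UVA reaches the skin as the largest part of solar ultraviolet light and acts on cells mainly through reactive oxygen species formed by light-absorbing molecules. Keratinocytes answer oxidants and electrophiles through NRF2 (gene NFE2L2), which leaves its inhibitor KEAP1 and switches on genes for glutathione synthesis, thioredoxin recycling and detoxification. Many plant flavonoids are also ligands of the aryl hydrocarbon receptor, a second sensor that induces cytochrome P450 genes. Irradiated keratinocytes are further known to signal through the EGF receptor and ERK to AP-1, to release interleukin-1, and to pause the cell cycle.

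Library totals were 17053246 to 19324311 counts in NC and 20129928 to 21971215 in CT, and TMM scaling factors lay between 0.976 and 1.01. Of 12 keratinocyte markers, 12 were tested, and their summed level was 7087 to 8067 CPM (counts scaled per library by TMM) in NC and 6129 to 6281 CPM in CT. The summed level of 9 fibroblast markers was 2.16 to 3.53 CPM in NC and 1.11 to 1.17 CPM in CT, that of 7 melanocyte markers 5.46 to 6.17 and 4.63 to 6.44 CPM, that of 9 immune markers 12.04 to 13.2 and 15.9 to 17.5 CPM, and that of 6 endothelial markers 6.997 to 9.81 and 5.79 to 6.87 CPM. PDGFRA, POSTN, TYR, KDR and EMCN had 0 counts in all 9 libraries, the leukocyte marker PTPRC had 7, 0 and 5 counts in NC and 0 in each CT library, and the immune sum consisted mainly of CD68, which had 164, 192 and 157 counts in NC and 293, 310 and 313 in CT. The part of these marker levels in the results was not tested. Libraries of 1 group varied beyond counting noise (chi-square over its degrees of freedom 3.41 to 7.26 within NC and 3.56 to 7.23 within CT). In RNA from whole cultures, fewer cells of a kind and less RNA per cell cannot be told apart. At the edge of the filter, ABHD12B was just inside it with 10, 6 and 3 counts in NC and 12, 7 and 18 in CT, and UBXN10 was just outside it with 9, 9 and 11 counts in NC and 11, 1 and 5 in CT.

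Cells that had received UVA and the extract differed from untreated cells in many genes, mostly by small amounts. At an adjusted p under 0.05 (edgeR's quasi-likelihood test, Benjamini-Hochberg over the 15154 genes), 2372 genes were higher in CT, 15.7% of those tested, and 2145 were lower, 14.2%. The median absolute log2 fold change of these genes was 0.33, 386 rose and 540 fell by more than 1.5-fold, and 355 changed by more than 2-fold, 149 upward and 206 downward. In the same fit 10.5% of genes were higher and 10.6% lower in UVA than in NC, and 0.944% were higher and 0.614% lower in CT than in UVA. The last of these contrasts is the test of whether the other two differ. The 3 NC and 3 CT values did not overlap for 6514 genes, 43.0% of those tested, and for 4317 of the 4517 called. Of 12204 protein-coding genes 2187 were higher and 1983 lower, and of 1100 long noncoding RNAs 91 were higher and 60 lower. The call rested on 3 libraries a side, and between 3390 (without NC replicate 3) and 4565 (without CT replicate 1) genes were called when a library was left out. The number was 4561 without NC replicate 1, 3458 without NC replicate 2, 3491 without CT replicate 2 and 3397 without CT replicate 3. Counts over the gene lists below are to be read beside the shares over all tested genes, 15.7% higher and 14.2% lower.

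**Figure D1:**
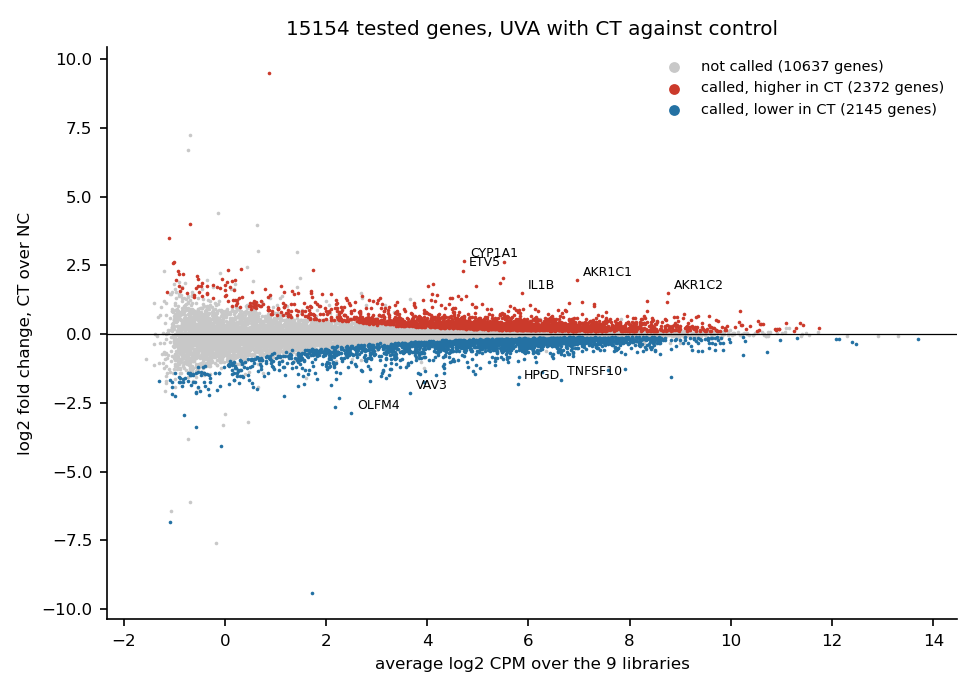
Log2 fold change of CT over NC (vertical axis) against the average log2 CPM over the 9 libraries (horizontal axis), 1 point per tested gene, with 2372 genes called higher in red, 2145 called lower in blue and the others in grey. Some of the largest rises and falls are labelled; most called genes lie close to the zero line, and the 2 points beyond 9 on either side are F8A2 and F8A3.

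OLFM4, which encodes a secreted glycoprotein of epithelial cells, had the largest fall among genes averaging 2 or more on the log2 CPM scale, with 7.46, 11.03 and 21.3 CPM in the NC libraries and 2.26, 0.947 and 2.15 CPM in the CT libraries (RefSeq GRCh38.p14, on chromosome 13 from 53028813 to 53052057). The NC libraries varied several-fold among themselves. The largest falls and rises were taken only from called genes whose NC and CT libraries did not overlap, so their separation follows from the choice. Its fall (log2 fold change -2.88, SE 0.59, adjusted p = 0.0121, where SE is the standard error) had a counterpart in the UVA libraries, at 3.17, 0.791 and 1.99 CPM. TNFSF10, the gene of the death ligand TRAIL, measured 134, 175 and 226 CPM in the NC libraries and 73.2, 56.5 and 40.4 CPM in the CT libraries. The log2 fold change of TNFSF10 was -1.65 (SE 0.28, adjusted p = 0.00549). VAV3, an exchange factor for small GTPases, had a log2 fold change of -2.15 and MAP2K6, a kinase that activates p38, of -1.59, and the small GTPase RAB26 (-1.86), the proline dehydrogenase PRODH (-1.69), FILIP1L (-1.73) and CCDC80 (-1.56) were also among the 12 largest falls. HPGD, which breaks down prostaglandins, stood at 75.2, 101 and 133 CPM in the NC libraries and 37.4, 26.2 and 25.2 CPM in the CT libraries. In the list of 14 tested prostaglandin genes 4 were higher (28.6%) and 2 lower (14.3%), beside 15.7% and 14.2% of all tested genes. The other lower gene was the transporter SLCO2A1 (-0.66, adjusted p = 0.0135, but 0.117 without NC replicate 2 and 0.0786 without CT replicate 3). The inducible cyclooxygenase PTGS2, a choice made with its value known, was at 0.24 (adjusted p = 0.316).

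Of 35 tested genes controlled by NRF2, 25 were higher with UVA and extract than in untreated cells, with a median log2 fold change of 0.26 beside 0.00 over all tested genes, and 0 were lower in edgeR, DESeq2 and limma-voom, and 0 at an unadjusted p under 0.05. GCLC, the catalytic subunit of the enzyme that limits glutathione synthesis, had 107, 112 and 107 CPM in the NC libraries and 246, 235 and 219.6 CPM in the CT libraries (on chromosome 6 from 53497341 to 53545101). Every CT library was far above every NC library, and the UVA libraries, at 125, 130.1 and 131 CPM, lay between the groups and closer to NC. GCLC had the smallest adjusted p of the list (log2 fold change 1.11, SE 0.05, adjusted p = 2.99e-12). TXNRD1, the cytosolic thioredoxin reductase, measured 285, 269 and 270.5 CPM in the NC libraries and 583, 591 and 668 CPM in the CT libraries, with no overlap (log2 fold change 1.16, SE 0.05, adjusted p = 1.09e-11). Thioredoxin itself, TXN, rose with it (510.4, 517 and 516 CPM in the NC libraries and 773, 800.5 and 867 CPM in the CT libraries, log2 fold change 0.66).

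For some of these genes the UVA libraries overlapped those of untreated cells. GCLM, the regulatory subunit of the same enzyme, was at 73.1, 67.3 and 73.7 CPM in NC, 71.3, 74.2 and 72.97 CPM in UVA and 97.5, 94.2 and 104 CPM in CT. Every CT library was above the 6 others (CT over NC log2 fold change 0.47, adjusted p = 2.85e-06; UVA over NC log2 fold change 0.03, adjusted p = 0.762; CT over UVA log2 fold change 0.44, adjusted p = 4.40e-05). NQO1, a quinone reductase, chosen after its values were seen, held 251, 239.7 and 246 CPM in NC, 241, 239 and 243 CPM in UVA and 318, 316 and 335 CPM in CT, so here too the irradiated cells without extract overlapped the untreated ones. Of the whole list, 11 genes were higher and 6 lower in UVA than in NC, and 21 were higher in CT than in UVA. The transcript of NRF2 did not follow its targets, with 249.6, 248 and 252 CPM in the NC libraries and 256, 236 and 259 CPM in the CT libraries for NFE2L2 (log2 fold change 0.00, adjusted p = 0.958). HMOX1, the heme oxygenase often read as an NRF2 target, was close to the detection limit at 1.39, 0.649 and 0.588 CPM in the NC libraries and 0.336, 1.54 and 1.07 CPM in the CT libraries, and its groups overlapped (log2 fold change 0.15, adjusted p = 0.847). The ferritin light chain FTL, which stores iron and is an NRF2 target, averaged 246 ± 2.60 CPM (SD, n = 3) in NC and 359 ± 10.7 CPM (SD, n = 3) in CT and was higher (log2 fold change 0.54, adjusted p = 1.02e-08), and TFRC, which imports iron, rose by 0.38 on the log2 scale.

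Some genes of glutathione and peroxide metabolism were lower in CT. In a wider list of 38 genes for glutathione, thioredoxin and peroxiredoxin metabolism, 15 were higher (39.5%) and 7 lower (18.4%). Over all tested genes 15.7% were higher and 14.2% lower, so the share of lower genes was near that of all genes. Among the lower genes were CAT, the peroxisomal catalase, with 92.4, 97.4 and 106 CPM in the NC libraries and 79.5, 74.2 and 65.6 CPM in the CT libraries (log2 fold change -0.43, adjusted p = 8.36e-05), the peroxiredoxin PRDX5 (-0.24) and TXNIP, a binding partner and inhibitor of thioredoxin (-0.74). These 3 were chosen after their values were seen. CAT and PRDX5 were also lower in UVA than in NC (log2 fold change -0.39 and -0.22), whereas TXNIP was at 104, 104 and 93.9 CPM in UVA, overlapping the NC libraries at 100.2, 110.3 and 103 CPM and above the CT libraries at 68.9, 68.8 and 50.6 CPM. The count of lower genes in this list was 3 without NC replicate 2, 4 without CT replicate 1 or CT replicate 2, and 4 with the replicate number as a block.

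The promoter of TXNRD1 is shown because it holds the motif of the antioxidant response element, the sequence bound by NRF2 with small MAF proteins, at 2 places. The stretch runs from 150 bases before the start of the RefSeq transcript to 10 bases from it on (GRCh38.p14, chr12:104215629-104215788, plus strand), printed 5′ to 3′ with matches to TGACNNNGC on either strand in capitals.
TXNRD1: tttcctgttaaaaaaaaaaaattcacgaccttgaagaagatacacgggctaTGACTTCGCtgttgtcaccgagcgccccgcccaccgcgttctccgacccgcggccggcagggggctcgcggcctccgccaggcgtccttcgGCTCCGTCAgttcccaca
Of the 24 tested NRF2 targets with a promoter in the RefSeq table, 7 (29.2%) held this motif between 250 bases before and 50 after the start, beside 13.6% of all 27305 promoters and 15.2% of those of tested genes. TGACTCAGC, found in the window of ME1, meets this motif and the AP-1 element TGACTCA alike. A match of letters is not evidence of binding.

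Of 10 tested genes of the aryl hydrocarbon receptor and its targets, 5 were higher and 1, the receptor's partner ARNT, was lower (-0.42; 2 were lower without NC replicate 1), with a median log2 fold change of 0.46. Of its targets the P450 gene CYP1A1 had the largest rise of all genes above that same average level, and its libraries are given one by one because they spread widely, with 8.80, 6.33 and 10.05 CPM in the NC libraries and 74.9, 45.2 and 40.1 CPM in the CT libraries. CT replicate 1 was well above the other CT libraries, and separation from NC was again part of the choice. UGT1A6, a glucuronosyltransferase of xenobiotic metabolism, had 319.6, 333 and 355 CPM in NC, 324, 316 and 331 CPM in UVA and 463, 412 and 422 CPM in CT. NC and UVA overlapped for this gene and CT lay above both (CT over NC log2 fold change 0.37, SE 0.05, adjusted p = 1.24e-05). UGT1A1, whose last exons are the same as those of UGT1A6 so that reads can be split between them, rose by 0.61, and TIPARP, which restrains the receptor, by 0.29 (adjusted p = 0.000163). The receptor gene AHR, chosen after its values were seen, had 117, 112 and 123 CPM in the NC libraries and 119, 123 and 116 CPM in the CT libraries, with overlapping groups (log2 fold change 0.03, adjusted p = 0.719).

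The promoter of CYP1A1 is printed for the core of the xenobiotic response element, GCGTG or its reverse complement, in capitals, which the receptor binds with ARNT (GRCh38.p14, chr15:74725519-74725678, minus strand).
CYP1A1: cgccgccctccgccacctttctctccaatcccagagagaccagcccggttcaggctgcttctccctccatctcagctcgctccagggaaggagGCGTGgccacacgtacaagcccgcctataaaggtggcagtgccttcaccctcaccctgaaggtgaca
This short motif was in the windows of 5 of 8 list members (62.5%), in 36.3% of all promoters and in 50.5% of those of tested genes.

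Of 27 glycolytic genes 15 were higher and 3 lower (median log2 fold change 0.20), and of 25 genes known to respond to hypoxia 14 were higher and 2 lower (median 0.35). LDHA, which turns pyruvate into lactate, had 2451, 2374 and 2375 CPM in NC, 2321, 2397 and 2354 CPM in UVA and 3077, 3194 and 3280.2 CPM in CT. The UVA libraries overlapped NC, and each CT library was above all 6 of the others (log2 fold change 0.41, SE 0.04, adjusted p = 1.11e-07). HK2, the inducible hexokinase that opens glycolysis, was at 46.5, 43.5 and 36.2 CPM in NC, 62.2, 64.2 and 64.3 CPM in UVA and 79.1, 91.1 and 95.2 CPM in CT, with no overlap between any of the groups (log2 fold change 1.07, SE 0.08, adjusted p = 7.58e-07). The kinase PGK1 (0.29) and the platelet phosphofructokinase PFKP (0.60) rose as well. Of this list 5 genes were higher and 6 lower in UVA than in NC, and 14 were higher in CT than in UVA.

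BNIP3, a receptor that marks mitochondria for degradation, stood out among the hypoxia genes with 9.93, 10.3 and 9.70 CPM in the NC libraries and 24.4, 29.1 and 29.6 CPM in the CT libraries (on chromosome 10 from 131967684 to 131981923). The groups were separated by more than their spread (log2 fold change 1.47, SE 0.10, adjusted p = 3.13e-09). P4HA1, which hydroxylates collagen prolines, rose by 0.56, the ER oxidase ERO1A by 0.39 and EGLN1, the prolyl hydroxylase that senses oxygen, by 0.55. PDK1, which keeps pyruvate out of mitochondria and was chosen after its values were seen, had 20.1, 17.6 and 19.3 CPM in NC, 19.4, 26.1 and 21.6 CPM in UVA and 28.2, 31.04 and 33.8 CPM in CT (log2 fold change 0.71, adjusted p = 3.43e-05; CT over UVA log2 fold change 0.47, adjusted p = 0.0145). HIF1A and the glucose transporter SLC2A1, chosen after their values were seen, were at 0.22 (adjusted p = 0.00167) and 0.32 (adjusted p = 0.00147). EPAS1, which encodes the related factor HIF-2 alpha and was also chosen after its value was seen, was lower (-0.64), as was ARNT. The lower glycolytic genes were HK1, ALDOC and PFKFB3, chosen after their values were seen, of which 1 was called without NC replicate 2, NC replicate 3 or CT replicate 3. Of the hypoxia genes 4 were lower without CT replicate 1. Of 17 tested genes of NADPH supply, which feeds glutathione and thioredoxin reduction, 8 were higher and 2 lower. TALDO1 (0.24) and TKT (0.21) of the pentose phosphate pathway were among the higher and the mitochondrial transhydrogenase NNT (-0.38) among the lower. The summed level of the 18 genes listed was 2464 to 2545 CPM in NC and 2502 to 2520 CPM in CT, which overlapped.

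**Figure D2:**
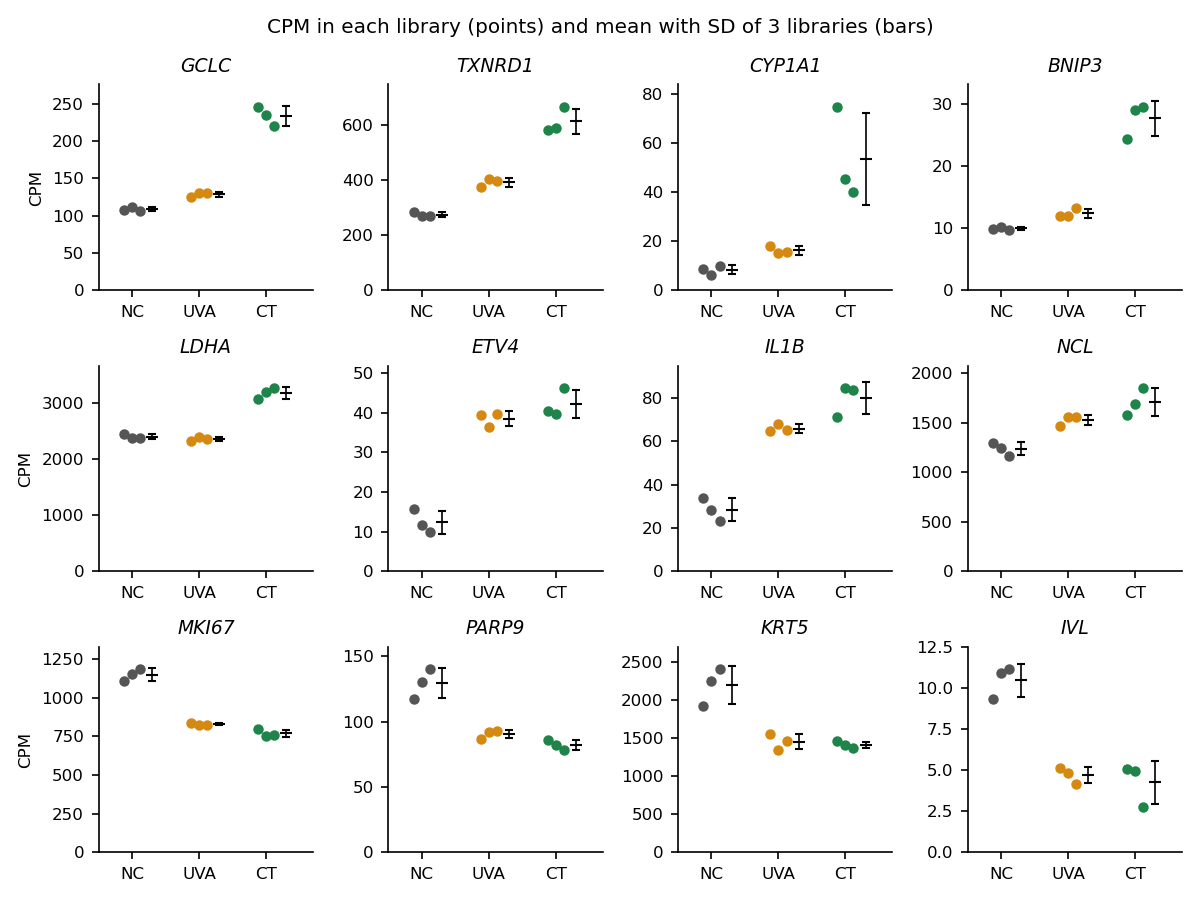
CPM of 12 genes in each of the 9 libraries (points, vertical axis from 0, by group on the horizontal axis), with the mean and SD of 3 libraries beside them. GCLC, TXNRD1, CYP1A1, BNIP3 and LDHA are highest in CT, above all libraries of the other groups, whereas for ETV4, IL1B, MKI67, KRT5 and IVL the UVA and CT libraries both lie apart from NC.

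The list of feedback genes of the ERK pathway, among them genes switched on when ERK is active and some that dampen it, comprised 20 tested members. In CT against NC 12 were higher (median log2 fold change 0.57), and 0 were lower in edgeR, DESeq2 and limma-voom, and 1 at an unadjusted p under 0.05. Without NC replicate 1, and with library sizes alone as the scaling, 1 was lower. In UVA against NC 13 were higher. ETV4, a factor of the PEA3 group of ETS proteins, had 15.6, 11.6 and 9.93 CPM in the NC libraries and 40.5, 39.8 and 46.3 CPM in the CT libraries (on chromosome 17 from 43527846 to 43546340). No CT library came near the NC range (log2 fold change 1.76, SE 0.12, adjusted p = 8.12e-07). DUSP4, a phosphatase that inactivates ERK in the nucleus, measured 8.49, 7.41 and 5.29 CPM in the NC libraries and 21.05, 24.7 and 30.8 CPM in the CT libraries (log2 fold change 1.84, SE 0.17, adjusted p = 1.64e-05), and SPRED2, an inhibitor of RAF activation, rose by 0.75 and PHLDA1 by 0.58. Their differences between CT and UVA were 0.13 for ETV4, 0.46 for DUSP4, 0.03 for SPRED2 and -0.07 for PHLDA1 on the log2 scale, with adjusted p from 0.206 to 0.888.

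Of 14 genes of the EGF receptor family and its ligands 7 were higher and 3 lower. AREG, the ligand amphiregulin, had 8.23, 7.03 and 5.05 CPM in the NC libraries and 16.3, 20.2 and 32.1 CPM in the CT libraries, without overlap (log2 fold change 1.75, SE 0.30, adjusted p = 0.00514). TGFA, encoding transforming growth factor alpha, measured 69.5, 63.5 and 61.8 CPM in the NC libraries and 110.2, 117 and 133 CPM in the CT libraries (log2 fold change 0.89, SE 0.07, adjusted p = 1.68e-06), and HBEGF, a heparin-binding ligand, rose by 1.24. ERRFI1, a feedback inhibitor that binds the receptor's kinase domain, rose by 0.99. The receptor gene EGFR was at 0.26 (adjusted p = 5.70e-05), whereas ERBB2 was lower at -0.35 (adjusted p = 4.04e-05) and ERBB3 at -0.27 (adjusted p = 0.00484). EGFR and ERBB3 were chosen after their values were seen.

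Of 21 AP-1 and immediate early genes 12 were higher and 1, JUND, was lower. FOSL1, an AP-1 subunit that needs ERK activity, had 18.5, 9.79 and 7.82 CPM in the NC libraries and 53.4, 68.5 and 105 CPM in the CT libraries. The log2 fold change of FOSL1 was 2.64 (SE 0.39, adjusted p = 0.00316). MAFF, a small MAF protein that pairs with NRF2, rose by 1.44 (adjusted p = 2.93e-07), ATF3 by 0.85 and SRF by 0.41. JUND, the only one of these genes called lower, was at -0.37 (adjusted p = 0.0187, but 0.0699 without NC replicate 3 and 0.128 without CT replicate 3). MYC, JUND and the cyclin gene CCND1 were chosen after their values were seen. MYC had 147, 131 and 117 CPM in the NC libraries and 208, 227 and 256 CPM in the CT libraries (log2 fold change 0.81, adjusted p = 0.000167) and CCND1 was at 0.51.

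Of 26 tested genes of inflammatory cytokines and NF-κB, 15 were higher and 2 lower, with a median log2 fold change of 0.66. IL1B, encoding interleukin-1 beta, had 33.7, 28.2 and 23.2 CPM in NC, 64.6, 68.1 and 65.04 CPM in UVA and 71.3, 84.8 and 83.4 CPM in CT. Both irradiated groups were above NC for this gene (log2 fold change 1.49, SE 0.11, adjusted p = 7.60e-06), and the difference between CT and UVA was 0.28 (adjusted p = 0.279). BIRC3, an inhibitor of apoptosis induced by NF-κB, measured 34.4, 35.9 and 33.6 CPM in the NC libraries and 58.3, 61.2 and 73.4 CPM in the CT libraries (log2 fold change 0.89, SE 0.09, adjusted p = 5.16e-06), NFKB2 rose by 0.91 and the monocyte chemokine CCL2 by 0.83. IL6 was near the detection limit at 0.257, 0.162 and 0.588 CPM in the NC libraries and 0.721, 0.947 and 2.33 CPM in the CT libraries, with a log2 fold change of 1.999 (adjusted p = 0.00659, but 0.0834 without CT replicate 3). TNF did not pass the filter and was not tested. The lower genes were REL, a subunit of NF-κB (-0.58), and CSF1, the growth factor of macrophages (-0.76), both chosen after their values were seen. In UVA against NC 9 of these genes were higher and 2 lower, with a median log2 fold change of 0.74. In the direct test of CT against UVA 0 were higher and 0 lower.

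The insulin adaptor IRS2 rose from 15.4, 9.63 and 10.5 CPM in NC to 29.1, 31.9 and 32.8 CPM in CT (log2 fold change 1.39, SE 0.15, adjusted p = 4.03e-05) and IRS1 rose by 0.62, while PIK3R3, a regulatory subunit of phosphoinositide 3-kinase, was lower at -1.11 and FGFBP1, which releases FGF from the matrix, at -0.47. Of the genes of TGF-beta and BMP signalling, 7 of 30 were higher and 7 lower (23.3% each, beside 15.7% and 14.2% of all tested genes). TGFB2 (0.68), the receptor TGFBR2 (0.47) and SMAD3, which carries the TGF-beta signal to the nucleus (0.40), were higher. The ID genes, which encode inhibitors of basic helix-loop-helix factors and are induced by BMP, were among the lower ones. ID4 had 2.83, 5.30 and 4.47 CPM in the NC libraries and 0.865, 1.10 and 0.653 CPM in the CT libraries (log2 fold change -2.26, SE 0.29, adjusted p = 1.05e-05), ID1 was at -1.29 and ID3 at -1.38, the latter 2 chosen after their values were seen. The CT values of ID4 were all below the NC values. In the list of FGF, insulin and IGF receptor signalling, 3 of 21 genes were higher (14.3%) and 5 lower (23.8%). The lower count was 3 without NC replicate 2, NC replicate 3 or CT replicate 3.

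Structural genes of keratinocytes were altered in a mixed way. Of 14 keratins, the intermediate filament proteins of epithelia, 6 were lower and 3 higher. The basal keratin KRT5 had 1921, 2249.8 and 2411 CPM in the NC libraries and 1455, 1403 and 1370.2 CPM in the CT libraries (on chromosome 12 from 52514575 to 52520394), with every CT library below every NC library (log2 fold change -0.64, SE 0.08, adjusted p = 0.000715). Its partner KRT14 was at -0.33 and KRT19 at -0.61, while KRT18, a keratin of simple epithelia, measured 259, 221 and 195 CPM in the NC libraries and 348, 390.5 and 463 CPM in the CT libraries and was higher (log2 fold change 0.83, SE 0.13, adjusted p = 0.00445). KRT15, a marker of basal and stem-like keratinocytes chosen after its value was seen, was lower at -1.54 (adjusted p = 0.00672). In UVA against NC 2 keratins were higher and 8 lower.

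In a list of 31 genes of desmosomes, hemidesmosomes and basement membrane 12 were higher and 10 lower, with a median log2 fold change of 0.01. DSP, the plakin that ties keratins to desmosomes, had 955, 1019 and 1049 CPM in the NC libraries and 824, 808 and 793 CPM in the CT libraries (log2 fold change -0.32, SE 0.04, adjusted p = 5.86e-06), and DSC2 (-0.59), PKP1 (-0.37) and DSG3 (-0.54) were lower too. DSP values of the groups did not overlap. LAMA3, a chain of laminin 332 named with its value known, was at 0.62 (adjusted p = 0.000529). The number of higher genes in this list was 6 without NC replicate 2 and 7 without CT replicate 3. At tight and adherens junctions 8 of 24 genes were lower and 2 higher, with E-cadherin, CDH1, at 358, 390.3 and 389.5 CPM in the NC libraries and 299, 303 and 295 CPM in the CT libraries (log2 fold change -0.34, adjusted p = 4.70e-06), CTNND1 at -0.34, CGN at -0.74 and NECTIN4 at -0.81.

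Of 27 tested genes of the cornified envelope 8 were higher and 7 lower. FLG, the gene of filaggrin, which bundles keratin in the outer epidermis, had 44.7, 34.8 and 33.5 CPM in the NC libraries and 65.8, 71.4 and 71.7 CPM in the CT libraries (log2 fold change 0.88, SE 0.09, adjusted p = 4.13e-06). Involucrin, IVL, a precursor of the envelope itself, moved in the opposite direction with 9.31, 10.9 and 11.2 CPM in the NC libraries and 5.09, 4.93 and 2.75 CPM in the CT libraries (log2 fold change -1.30, SE 0.18, adjusted p = 3.47e-05). Neither gene's groups overlapped. Of the list 8 genes were higher and 4 lower in UVA than in NC, 15 were not called there, and 2 were lower and 0 higher in CT than in UVA. CSTA, a protease inhibitor of the envelope, had 98.3, 93.1 and 92.2 CPM in NC, 94.8, 95.8 and 97.2 CPM in UVA and 78.6, 77.7 and 73.1 CPM in CT. For CSTA NC and UVA overlapped and the CT libraries lay below both (CT over NC log2 fold change -0.31, adjusted p = 8.56e-05; CT over UVA log2 fold change -0.33, adjusted p = 0.000457). The alarmins S100A7, S100A8 and S100A9, antimicrobial proteins of stressed epidermis chosen after their values were seen, had log2 fold changes of 1.49, 1.496 and 0.63 in CT and 1.33, 1.77 and 0.48 in UVA against NC. The protease KLK5, which loosens cornified cells, was at -0.49. The number of higher genes was 5 without CT replicate 3 and again 5 when every library had to hold 10 counts or more. Among regulators of keratinocyte fate 9 of 21 were lower and 2 higher, with TP63, the master regulator of stratified epithelia, at -0.23, its relative TP73 at -1.20, the Notch ligand JAG2 at -0.62 and NOTCH2 at 0.26. Without NC replicate 2, 1 of these regulators was higher.

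**Figure D3:**
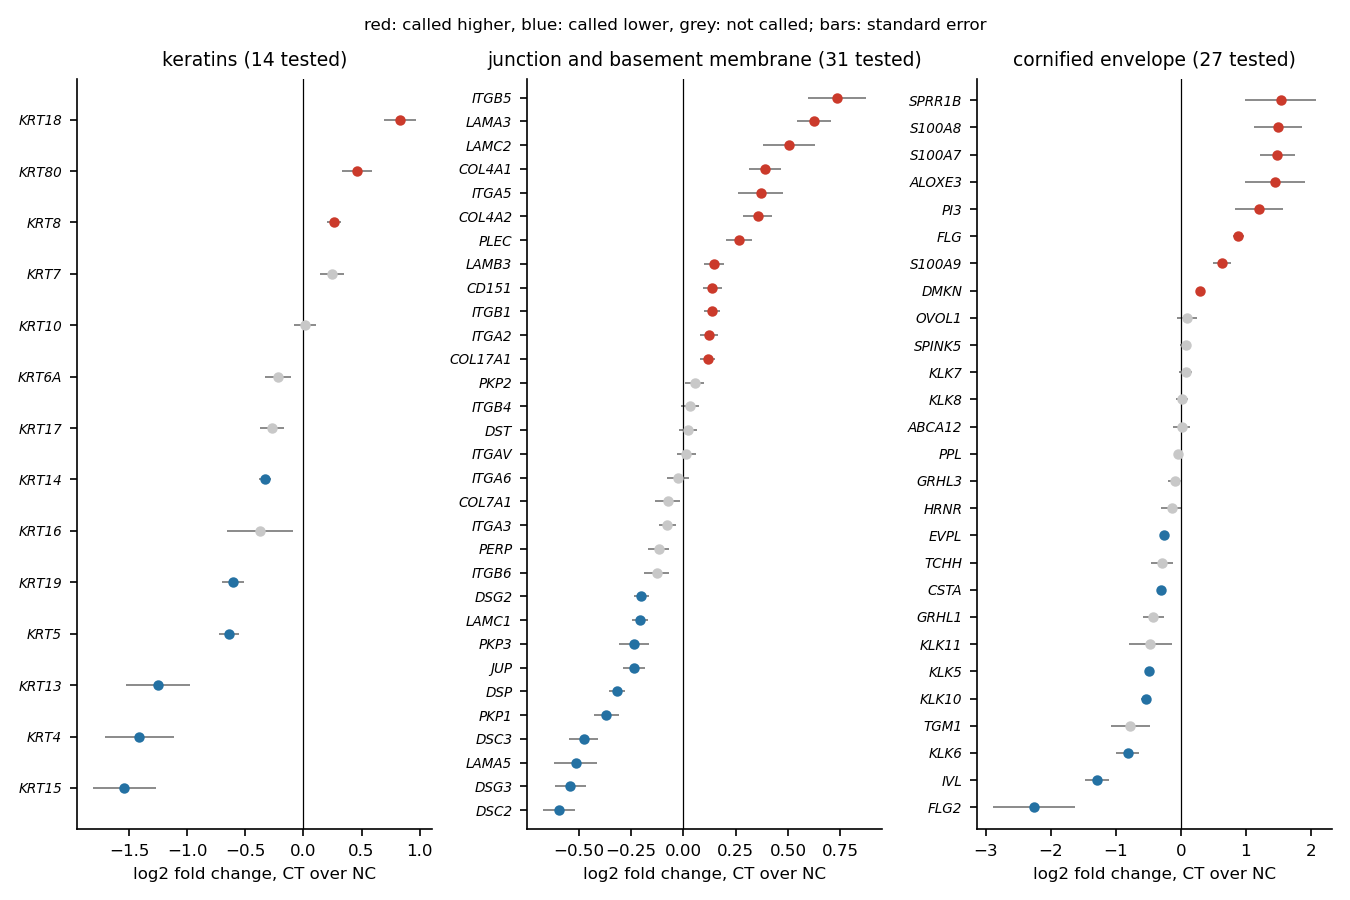
Log2 fold change of CT over NC (horizontal axis) with its standard error for 14 keratins, 31 genes of junctions and basement membrane and 27 genes of the cornified envelope, 1 row per gene. Red points were called higher, blue lower and grey neither; KRT18 and FLG lie to the right, and KRT15, KRT5, DSP and IVL to the left.

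Among the lists with at least 10 tested members, the highest share of changed genes was in that of ribosome biogenesis, the making of ribosomal RNA by RNA polymerase I and its assembly with proteins in the nucleolus. Of 43 genes 42 were higher, the median log2 fold change was 0.46, and 0 were lower in edgeR, DESeq2 and limma-voom, and 0 at an unadjusted p under 0.05. The gene not called was NOP2, which methylates ribosomal RNA (log2 fold change 0.57, adjusted p = 0.0956, but 0.0399 without NC replicate 1, 0.0315 by DESeq2 and 0.00771 by limma-voom). NCL, the nucleolar protein nucleolin, had 1299, 1241 and 1167 CPM in the NC libraries and 1580.3, 1692 and 1854 CPM in the CT libraries (on chromosome 2 from 231453531 to 231464484). Each CT library was above each NC library (log2 fold change 0.47, SE 0.05, adjusted p = 2.15e-05). NPM1, nucleophosmin, measured 1455, 1396 and 1285 CPM in the NC libraries and 1660.3, 1784 and 1857 CPM in the CT libraries and likewise did not overlap (log2 fold change 0.36, SE 0.05, adjusted p = 2.09e-05). POLR1C, a subunit shared by RNA polymerases I and III, rose by 0.62 and WDR75, a processing factor of the small subunit, by 0.39. In UVA against NC 35 of these genes were higher, and the median of CT over UVA was 0.11. Leaving out libraries one at a time left between 38 and 43 of the genes higher.

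RRP9, which belongs to the U3 processing complex, was chosen after its value was seen for its promoter, where an E-box (CACGTG, the same on both strands, bound by MYC and other factors) lies next to the start (GRCh38.p14, chr3:51941895-51942054, minus strand, motif in capitals).
RRP9: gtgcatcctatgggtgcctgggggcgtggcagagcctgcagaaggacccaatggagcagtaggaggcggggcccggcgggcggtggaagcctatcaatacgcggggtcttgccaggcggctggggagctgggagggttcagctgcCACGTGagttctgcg
RRP9 had 11.1, 12.8 and 10.6 CPM in the NC libraries and 16.4, 17.7 and 17.2 CPM in the CT libraries (log2 fold change 0.57, adjusted p = 0.00019). CACGTG was in the windows of 15 of the 36 list members with a promoter in the table (41.7%), beside 7.43% of all promoters and 10.1% of those of tested genes, of which 72.0% had a window.

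Of 31 genes of mitochondrial import and transcription 23 were higher (median log2 fold change 0.24), and 0 were lower in edgeR, DESeq2 and limma-voom, and 0 at an unadjusted p under 0.05. TOMM5, a small subunit of the outer membrane pore, had 35.5, 34.99 and 30.5 CPM in the NC libraries and 44.5, 48.1 and 50.4 CPM in the CT libraries (log2 fold change 0.50, SE 0.07, adjusted p = 2.66e-05), which left no overlap. TIMM17A (0.32), TIMM9 (0.46) and TOMM7 (0.31) were also higher. Of 77 mitochondrial ribosomal proteins 25 were higher, 16 without CT replicate 3, and 0 were lower in edgeR, DESeq2 and limma-voom, and 0 at an unadjusted p under 0.05. Of 77 nuclear genes of the respiratory chain 7 were higher (9.1%) and 4 lower (5.2%), under the 15.7% and 14.2% of all tested genes. Without NC replicate 3, 2 were higher. The higher count was 4 without NC replicate 1 and by DESeq2 and 3 without CT replicate 2 or 3, and the lower count 1 without NC replicate 2 and 7 without NC replicate 1. CYCS, cytochrome c, was at 0.31 and SDHA, a subunit of complex II, at -0.23.

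The 13 genes encoded by mitochondrial DNA were divided, 3 higher and 4 lower. ND3, a subunit of complex I, had 569, 639 and 634 CPM in the NC libraries and 812, 769 and 839 CPM in the CT libraries (log2 fold change 0.39, adjusted p = 3.64e-05), and the cytochrome oxidase subunit COX3 had 5661, 6036 and 6293 CPM in the NC libraries and 5064, 4826 and 4969 CPM in the CT libraries (log2 fold change -0.28, adjusted p = 6.55e-05). ND3 and COX3 thus differed in direction, each without overlap between the groups.

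Cytosolic and mitochondrial chaperones were higher for 26 of 45 genes and lower for 6. AHSA1, the activator of HSP90, measured 118, 114 and 111 CPM in the NC libraries and 139.8, 156 and 165 CPM in the CT libraries (log2 fold change 0.42, SE 0.05, adjusted p = 1.18e-05), HSP90AB1 rose by 0.33 and GRPEL1, a cofactor of the mitochondrial HSP70, by 0.41. HSPA4L, a nucleotide exchange factor for HSP70, was at -0.46, and HSPB1, a small heat shock protein chosen after its value was seen, at -0.74. Of the 41 proteasome genes in the wider list used here 28 were higher, 13 without CT replicate 3, and the 2 lower ones, PSME1 and PSME2, encode the interferon-inducible regulator of the proteasome and were chosen after their values were seen (log2 fold change -0.22 and -0.12). In most alternatives, among them DESeq2, the replicate block and leaving out any NC library, CT replicate 1 or CT replicate 2, 1 of these was lower.

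**Figure D4:**
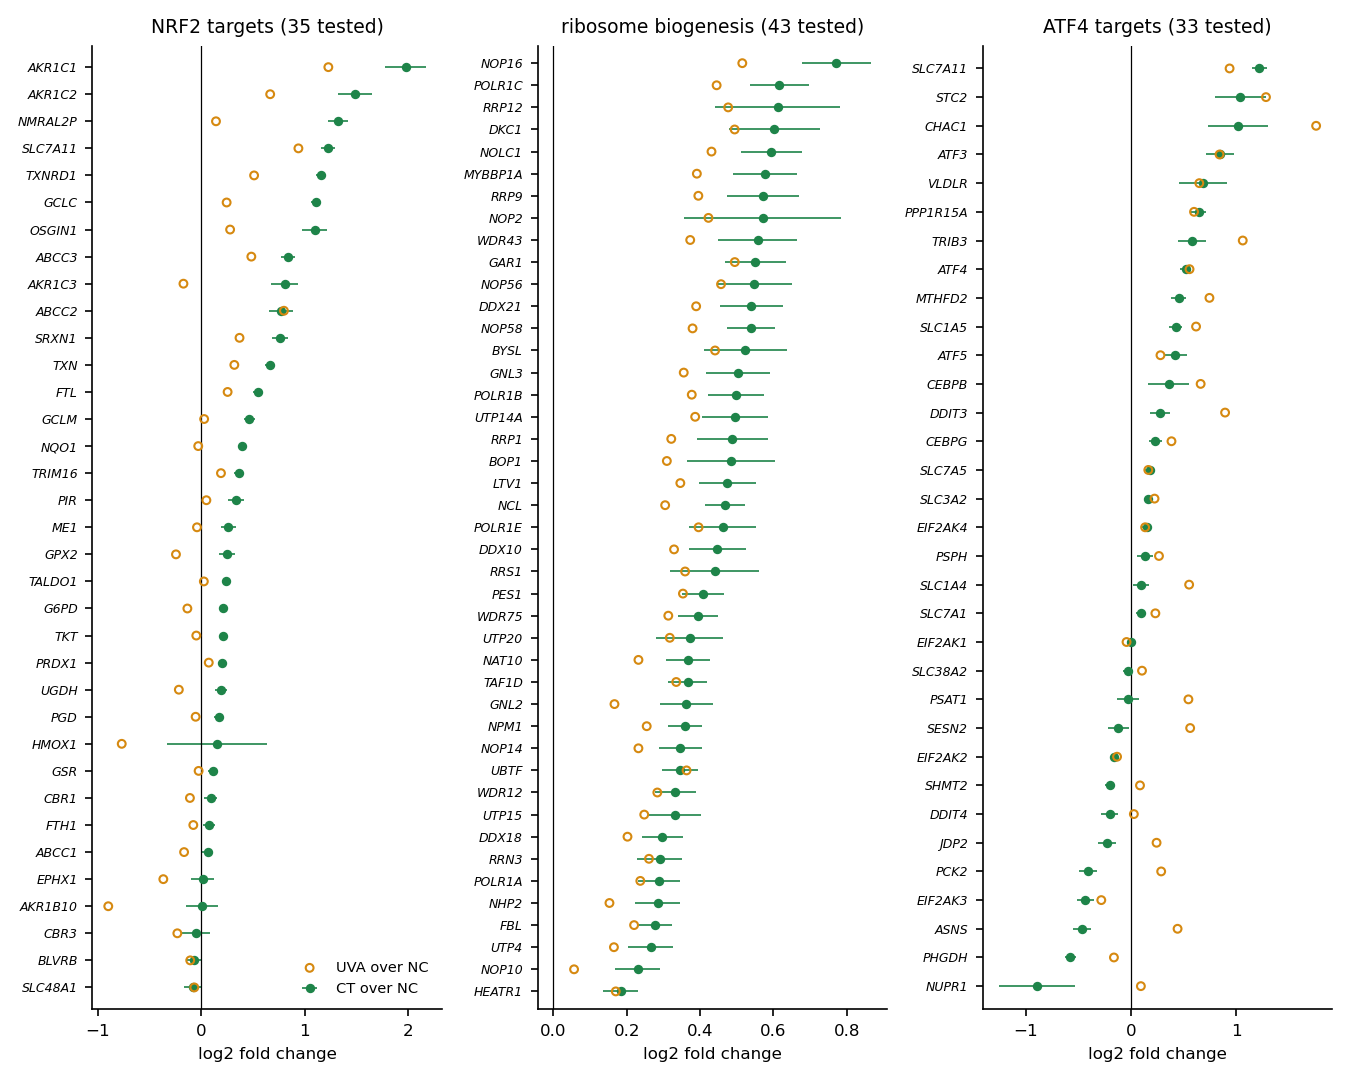
Log2 fold change over NC (horizontal axis) of each tested member of 3 lists, with CT as filled points and standard errors and UVA as open circles. In the NRF2 list most CT points lie to the right of the UVA circles, in ribosome biogenesis both lie to the right of 0 for all 43 genes, and in the ATF4 list several UVA circles, DDIT3 and ASNS among them, lie to the right of CT.

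Of 53 genes of G2 and mitosis 39 were lower and 1 higher, with a median log2 fold change of -0.24. MKI67, the antigen Ki-67 that coats mitotic chromosomes, had 1105, 1151 and 1187 CPM in the NC libraries and 795, 754 and 757 CPM in the CT libraries. There was no overlap (log2 fold change -0.58, SE 0.04, adjusted p = 2.02e-09). INCENP, the scaffold of the chromosomal passenger complex, measured 129, 132 and 126 CPM in the NC libraries and 84.3, 87.98 and 82.3 CPM in the CT libraries (log2 fold change -0.60, SE 0.05, adjusted p = 4.69e-08), and ANLN, which organizes the cleavage furrow, was at -0.44. CCNB1, chosen after its value was seen, did not move with them, at 252, 262 and 260.3 CPM in the NC libraries and 249, 252 and 271 CPM in the CT libraries (log2 fold change 0.00, adjusted p = 0.964). In DNA replication 14 of 51 genes were lower and 3 higher, with the ligase LIG1 at -0.30, thymidine kinase TK1 at -0.29 and the clamp loader subunit RFC3 at 0.22. Without NC replicate 2 the lower count was 9, and the higher count was 5 without NC replicate 1 and 1 without NC replicate 3, CT replicate 2 or CT replicate 3.

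At G1, CDKN2C, an inhibitor of CDK4 and CDK6, had 18.3, 18.6 and 18.3 CPM in the NC libraries and 10.4, 10.1 and 7.19 CPM in the CT libraries and fell without overlap (log2 fold change -0.996, SE 0.13, adjusted p = 9.35e-06). The MYC antagonist MXI1 rose by 0.62 and E2F3 by 0.47, whereas RB1, the retinoblastoma gene that restrains E2F, was at -0.35. This list of 30 genes had 8 higher and 8 lower.

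The promoter of MKI67 is printed because it holds 2 copies of the cell cycle homology region (TTTGAA or its reverse complement, in capitals), through which DREAM and related MuvB complexes act on mitotic genes (GRCh38.p14, chr10:128126414-128126573, minus strand).
MKI67: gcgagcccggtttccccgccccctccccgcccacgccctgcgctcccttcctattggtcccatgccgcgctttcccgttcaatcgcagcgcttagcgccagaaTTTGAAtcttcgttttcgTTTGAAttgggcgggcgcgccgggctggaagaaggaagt
This motif was in 34 of the 46 windows of the list (73.9%), beside 15.4% of all promoters and 10.2% of those of tested genes.

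Among interferon-stimulated genes, which defend cells against viruses, those that passed the test were lower in CT with 1 exception. Of 44 tested, 21 were lower and 1, IFIT2, was higher, with a median log2 fold change of -0.16. The same list had 19 lower and 1 higher gene in UVA against NC (median -0.15), and 1 lower and 0 higher in CT against UVA. PARP9, an ADP-ribosyltransferase partner that enhances interferon signalling, had 117, 130.0 and 141 CPM in the NC libraries and 85.7, 82.3 and 78.2 CPM in the CT libraries. The highest CT library was below the lowest NC library (log2 fold change -0.66, SE 0.06, adjusted p = 2.66e-07). STAT2, which carries the signal of type I interferon to the nucleus, was at 67.9, 71.9 and 72.1 CPM in NC, 61.1, 59.2 and 58.6 CPM in UVA and 49.98, 44.2 and 49.9 CPM in CT. It was lower in CT than in either other group (CT over NC log2 fold change -0.55, adjusted p = 1.45e-06; CT over UVA log2 fold change -0.31, adjusted p = 0.00648), with the UVA libraries in between. PARP14, another ADP-ribosyltransferase of the family, was lower as well (-0.40). IFIT2, chosen after its value was seen, was at 0.30 (adjusted p = 0.000121).

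PARP14 had 247, 264 and 286 CPM in the NC libraries and 214, 193 and 196 CPM in the CT libraries, and its promoter is printed for the core of the interferon-stimulated response element, a pair of GAAA runs with any 2 bases between them, on either strand, in capitals (GRCh38.p14, chr3:122680689-122680848, plus strand).
PARP14: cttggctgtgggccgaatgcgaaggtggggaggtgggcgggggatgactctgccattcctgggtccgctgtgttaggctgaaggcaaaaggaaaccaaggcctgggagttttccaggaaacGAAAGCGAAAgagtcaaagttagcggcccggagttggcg
Of 36 list members with a window 21 (58.3%) held the motif, beside 3.65% of all promoters and 2.88% of those of tested genes. The list was made of genes known to respond to interferon. Holders of the motif included genes not called, such as ISG15, MX1 and IFI6, beside lower ones such as OAS3, DDX60 and B2M. Over all tested genes with a window, 3.85% of the lower ones and 2.68% of those not called held it.

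Genes controlled by ATF4, the factor translated when eIF2α is phosphorylated, were split in CT. Of 33 tested, 16 were higher than in NC and 7 lower, whereas in UVA against NC 22 were higher and 3 lower, and 8 were lower in CT than in UVA. ATF4 itself had 297, 274 and 245 CPM in NC, 401, 393 and 408 CPM in UVA and 381, 387 and 404 CPM in CT, and the 2 irradiated groups overlapped (log2 fold change 0.52, SE 0.05, adjusted p = 2.55e-06). SLC7A11, the cystine importer that both ATF4 and NRF2 induce, was at 212, 176 and 168 CPM, 343, 360.3 and 363 CPM and 446, 421 and 432 CPM in the same order, so that it was highest in CT (log2 fold change 1.22, SE 0.07, adjusted p = 4.86e-07). PHGDH, the first enzyme of serine synthesis, went the other way with 255, 245 and 244 CPM in the NC libraries and 173, 176 and 150.2 CPM in the CT libraries (log2 fold change -0.58, SE 0.05, adjusted p = 5.79e-07). Without NC replicate 2 the count of higher genes was 10.

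DDIT3, which encodes the pro-apoptotic factor CHOP, had 14.6, 14.5 and 14.98 CPM in NC, 25.7, 29.4 and 26.9 CPM in UVA and 19.7, 16.7 and 16.99 CPM in CT. The CT values came closer to NC than to UVA, and the remaining difference from NC was small (log2 fold change 0.28, SE 0.09, adjusted p = 0.0268). It was no longer past the threshold without NC replicate 1 (0.0575), NC replicate 2 (0.077), NC replicate 3 (0.0513) or CT replicate 1 (0.132). PPP1R15A, whose product GADD34 ends the eIF2α signal, stayed above NC, with 50.9, 49.5 and 44.95 CPM in the NC libraries and 68.7, 75.02 and 83.8 CPM in the CT libraries (log2 fold change 0.65, SE 0.07, adjusted p = 1.97e-06). Of the sensors of unfolded proteins, EIF2AK3 (PERK) was at -0.43 (adjusted p = 0.000399), ATF6 at -0.15 (adjusted p = 0.0233, but 0.132 without NC replicate 3, 0.0851 without CT replicate 2 and 0.0756 with a correction for transcript length), and ERN1 (IRE1) at 0.15 (adjusted p = 0.384). Of 46 ER chaperones, foldases and sensors 6 were higher (13.0%) and 10 lower (21.7%), beside 15.7% and 14.2% of all tested genes. The higher count was 2 without CT replicate 2 or 3 and 3 without NC replicate 2 or with the replicate block, and the lower count was 6 without NC replicate 3 or CT replicate 2. P4HB, a protein disulfide isomerase, was at -0.19 and UGGT1, which checks glycoprotein folding, at -0.21.

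Aminoacyl-tRNA synthetases, which load amino acids onto tRNA and are partly ATF4 targets, were higher for 17 of 40 genes, 11 without NC replicate 3 or CT replicate 2, and lower for 2. GARS1 had 290.0, 269 and 253 CPM in NC, 403, 438 and 417 CPM in UVA and 343, 349.8 and 331 CPM in CT, with CT between the other groups (log2 fold change 0.34, SE 0.05, adjusted p = 2.95e-05). WARS1, which interferon also induces, was lower than in NC with 307, 298 and 285 CPM in the NC libraries and 212, 216 and 198 CPM in the CT libraries (log2 fold change -0.51, SE 0.04, adjusted p = 6.25e-08).

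Genes of apoptosis changed in both directions. In a list of 37 genes of the BCL2 family, caspases and death receptors 9 were higher and 10 lower, and of 25 p53 targets 6 were higher and 8 lower, the latter 4 without NC replicate 3 and 5 without CT replicate 2. TNFRSF10B, a receptor for TRAIL, had 57.2, 54.6 and 49.6 CPM in the NC libraries and 76.8, 79.2 and 84.8 CPM in the CT libraries (log2 fold change 0.58, SE 0.06, adjusted p = 2.22e-06), and TNFRSF10A, the other death receptor for TRAIL, rose by 0.75. Both receptors were higher while their ligand TNFSF10 was lower. PMAIP1, the BH3-only protein NOXA, rose by 0.46 (adjusted p = 2.62e-05). DDB2, which recognizes ultraviolet lesions in DNA and is a p53 target, fell from 51.9, 53.4 and 57.9 CPM in NC to 38.4, 37.7 and 35.7 CPM in CT (log2 fold change -0.54, SE 0.06, adjusted p = 3.58e-06), and TP53INP1 was at -1.63. The caspase gene CASP9 (-0.20, adjusted p = 0.558), BAX (0.19, adjusted p = 0.0864), BCL2 (0.35, adjusted p = 0.252) and the kinase MAPK8 (0.11, adjusted p = 0.199) did not pass the test. For BAX adjusted p = 0.00668 without CT replicate 1, and for BCL2 adjusted p = 0.0439 without NC replicate 1. CASP4 was at -0.19 (adjusted p = 0.0211, but 0.102 without NC replicate 2, 0.113 without NC replicate 3 and 0.0887 without CT replicate 2), and its groups overlapped. Transcript levels do not measure cleaved or phosphorylated proteins.

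Of 46 genes of lysosomes and autophagy 16 were lower and 8 higher. LIPA, the acid lipase, had 595, 597 and 611 CPM in the NC libraries and 493, 489 and 460.2 CPM in the CT libraries (log2 fold change -0.32, SE 0.04, adjusted p = 3.92e-06), and the cathepsins CTSH (-0.49) and CTSB (-0.27) were lower. SQSTM1, an autophagy receptor that also frees NRF2 from KEAP1, was higher, with 401, 386 and 407 CPM in the NC libraries and 515, 540.1 and 604 CPM in the CT libraries (log2 fold change 0.47, SE 0.05, adjusted p = 4.27e-06). Of 26 genes of cholesterol synthesis and uptake 9 were lower, with the sterol carrier STARD4 at -0.41 and mevalonate kinase MVK at -0.34. The desaturase SCD was at -0.37, while the elongase ELOVL6 rose by 0.34.

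Among matrix proteases and their inhibitors 5 of 20 were higher and 6 lower. MMP14, a membrane-bound collagenase, had 322, 328 and 337 CPM in the NC libraries and 269, 269 and 256 CPM in the CT libraries and was lower without overlap (log2 fold change -0.31, SE 0.04, adjusted p = 7.60e-06), as was its inhibitor TIMP2 (-0.37). The urokinase receptor PLAUR was higher (0.77). MMP1, the interstitial collagenase long tied to photoageing, chosen after its values were seen, was low at 4.37, 3.73 and 6.35 CPM in the NC libraries and 4.85, 4.13 and 4.53 CPM in the CT libraries, and its groups overlapped (log2 fold change -0.09, adjusted p = 0.768).

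**Figure D5:**
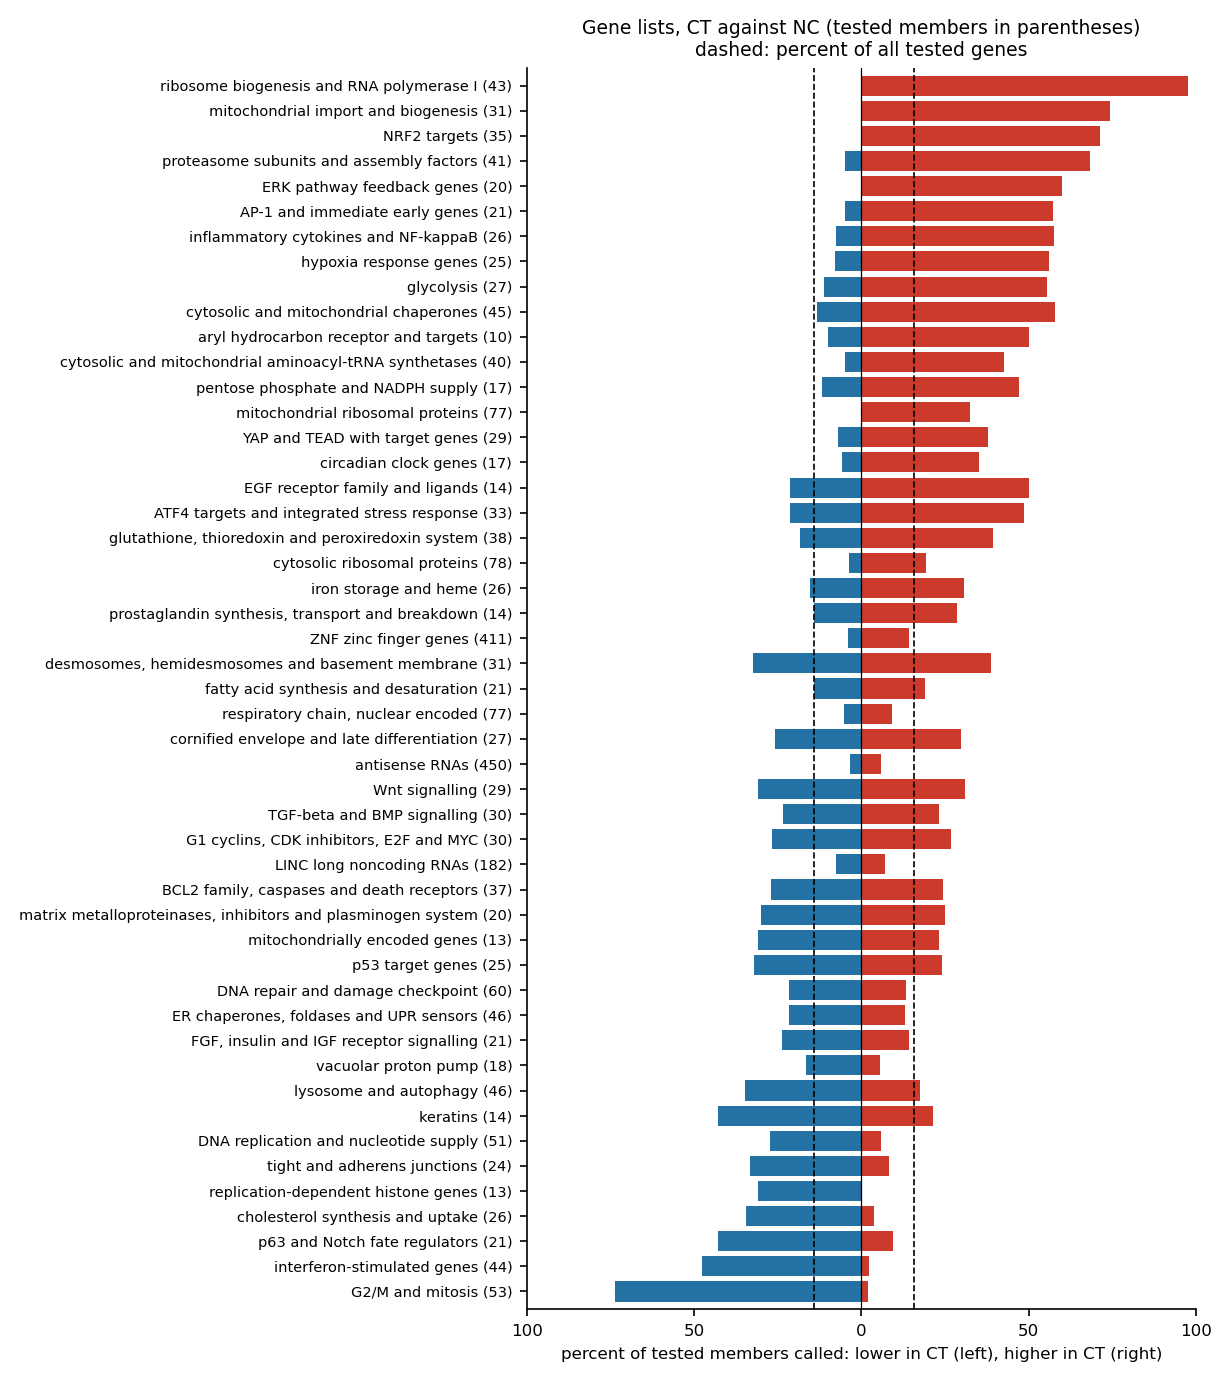
Share of the tested members of each list (horizontal axis, percent) called higher in CT than in NC (red, to the right) or lower (blue, to the left), for the lists with at least 10 tested members, whose number stands in parentheses. The dashed lines mark the shares over all tested genes, 15.7% and 14.2%; ribosome biogenesis is at the top and G2 and mitosis at the bottom.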

How the data were processed

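RNA-seq libraries of HaCaT cells were analysed from the table of gene counts that the authors deposited, whole numbers per gene symbol without normalization, in which every column matched the title of 1 sample and 0 columns were left unassigned. The submitters' processing notes name the build GRCh38, bcl2fastq and fastp 0.23.2. The aligner, counter, annotation and strand setting were not given in the sources used here, so overlapping genes and near-identical copies (AKR1C, UGT1A, F8A and histone genes) may share reads. Genes were kept with filterByExpr, which at these depths asked for 0.517 CPM in at least 3 libraries, and counts were scaled by TMM; CPM values are the counts after this scaling. All 9 libraries were fitted together with edgeR 4.0.16 (quasi-likelihood, robust, group as the only factor) in R 4.3.3, with Benjamini-Hochberg adjustment, and log2 fold changes carry the fit's standard errors. The fit was tested on simulated data before use. Alternatives were DESeq2 1.42.0, limma-voom 3.58.1, other scalings and filters, fewer libraries, the replicate number as a block, and corrections for transcript length and, added after the data were seen, GC content.

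Groups came from the sample labels. Deviations of CT and NC libraries with the same number correlated at -0.05, 0.02 and -0.02, so the numbers were not taken to pair samples. Genes could be named from the 12 that rose most and the 12 that fell most (adjusted p under 0.05, average log2 CPM of at least 2, groups not overlapping), from the 4 lowest adjusted p-values of each list and from the genes the study names; not all of them are reported here, and others are marked as chosen after their values were seen. The members and the lists were chosen with earlier results of these data known, and no test was made over a list. Gene positions are those of RefSeq on GRCh38.p14 and were matched by symbol. Promoter windows, 250 bases before to 50 after a start, were matched by symbol to 10915 tested genes, with the first window used where a gene had several, and motifs were searched on both strands. Library totals limit low genes, for which a difference may not be detectable.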

Additional observations from a re-analysis of the deposited data

How the results depend on the processing

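The number of genes called in CT against NC was 4517 and lay between 3390 (without NC replicate 3) and 4565 (without CT replicate 1) when 1 library was left out, with 1751 to 2430 higher and 1613 to 2181 lower. It was 4086 by DESeq2, 4421 by limma-voom, 4534 with DESeq2's size factors in edgeR, 4509 with library sizes alone (2178 higher and 2331 lower), 4180 with the NC and CT libraries alone, 4534 with a correction for transcript length and 4673 with one for GC content. With the replicate number as a block it was 4145, of which 2179 were higher and 1966 lower, and the numbers were not taken to pair the samples. An adjusted p under 0.01 left 1472 higher and 1288 lower genes, and a fold over 2 left 149 and 206. At an unadjusted p under 0.05 with a fold over 2, 185 genes were higher and 275 lower, 392 and 580 without a filter on low counts, and 88 and 130 where each library had to hold 10 counts or more.

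Of 6748 values of single genes under alternatives, 6510 kept their side of the threshold, 238 moved across it and 0 reversed direction while past it. Genes that were not called, such as NFE2L2 and HMOX1, could still change sign. Of 2128 counts over lists, 2011 stayed within 1.5 times the reported count and 117 did not. Most of the latter came from leaving out 1 library, and the cause was not tested. The GC correction was chosen after the data were seen. With 3 libraries a side, low genes such as HMOX1 (1.39, 0.649 and 0.588 CPM in the NC libraries and 0.336, 1.54 and 1.07 CPM in the CT libraries) allowed no statement at this depth.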

Other observations

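Targets and partners of the Hippo pathway effector YAP, which senses cell shape and contact, were higher for 11 of 29 genes and lower for 2. The lower count was 1 by DESeq2, without a filter on low counts and without any of 5 single libraries (NC replicate 2, NC replicate 3 and each CT replicate). TEAD4, a DNA-binding partner of YAP, had 17.3, 17.3 and 15.3 CPM in the NC libraries and 23.2, 24.9 and 22.9 CPM in the CT libraries, with no overlap (log2 fold change 0.50, SE 0.08, adjusted p = 0.000137). WWTR1, which encodes the related coactivator TAZ, was higher by 0.25 on the log2 scale and CRIM1 by 0.32. Wnt signalling genes were divided, with 9 of 29 higher and 9 lower, and in UVA against NC 7 were higher and 5 lower. Against UVA, 1 was higher in CT and 0 were lower. WNT5B, a ligand of the noncanonical branch, had 2.47, 2.22 and 3.35 CPM in the NC libraries and 1.01, 0.747 and 0.373 CPM in the CT libraries, all CT libraries below all NC libraries (log2 fold change -1.91, SE 0.35, adjusted p = 0.000415). WNT7B, a ligand made by keratinocytes, was at 24.02, 27.04 and 25.4 CPM in NC, 28.3, 23.98 and 25.1 CPM in UVA and 35.2, 32.7 and 29.7 CPM in CT. NC and UVA overlapped, and CT was above both (CT over NC log2 fold change 0.35, adjusted p = 0.00298; CT over UVA log2 fold change 0.33, adjusted p = 0.0447). In a list of 9 metallothioneins and zinc transporters 5 genes were higher and 1 lower. SLC30A1, which exports zinc, was at 0.51 (adjusted p = 2.02e-05), while the metallothionein MT1X, which binds it, was at -0.39 (adjusted p = 0.00177). Of 22 listed histone genes of the kind transcribed in S phase 13 were tested, and 4 of these were lower. In edgeR, DESeq2 and limma-voom 0 were higher, and 0 at an unadjusted p under 0.05. The lower count was 2 without NC replicate 2, NC replicate 3 or CT replicate 1. The libraries were enriched on oligo(dT) beads, which capture poly(A) tails, so these counts do not measure histone transcripts without such a tail. H2BC5 had 22.1, 23.4 and 24.9 CPM in the NC libraries and 13.7, 15.4 and 15.9 CPM in the CT libraries (log2 fold change -0.64, SE 0.10, adjusted p = 4.57e-05).

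F8A2 and F8A3 had the largest fitted changes of all tested genes. With F8A1 they are near-identical copies of 1 gene on the X chromosome, so their separate levels are uncertain, and they were chosen after their values were seen. F8A2 was at 0 CPM in every NC and UVA library and at 5.05, 4.73 and 4.53 CPM in CT. F8A3 was at 5.61, 3.46 and 4.41 CPM in NC and 7.22, 3.96 and 5.06 CPM in UVA and at 0 CPM in every CT library. F8A1 was at 7.56, 7.03 and 8.40 CPM in NC, 5.94, 9.13 and 8.69 CPM in UVA and 8.31, 7.07 and 6.53 CPM in CT, with overlapping groups. The sum over the 3 copies was 13.2, 10.5 and 12.8 CPM in NC, 13.2, 13.1 and 13.8 CPM in UVA and 13.4, 11.8 and 11.1 CPM in CT, which overlapped. No fold change is given for F8A2 and F8A3, since a fit against 0 depends on the prior count.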
